A study of Mus musculus with 2 samples.

Results

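Mir128-1, Mir128-2, Mir137, Mir132, Mir212 and Mir375 are microRNA (miRNA) genes best known from neurons and endocrine cells, and here they were followed in small RNA libraries of the embryonic mouse heart. They were chosen by symbol, with earlier results of these data known, and all 6 were among the 1973 miRNA genes counted. The series holds 1 group: whole hearts of strain B6NCrl at embryonic day 15.5, from healthy embryos of both sexes. Replicate 1 was a pool of 78 embryos and replicate 2 a pool of 62, so the spread between them is one between pools. There was no treated, mutant or second-tissue group. The only comparison is therefore between the 2 pools, set against counting noise.

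A miRNA gene is transcribed as a hairpin, from which a short mature strand is cut and loaded into a silencing complex. The bases near the 5′ end of the mature strand, the seed, pair with target mRNAs and lower their output. miR-128 and miR-137 accumulate as neurons differentiate. miR-132 and miR-212 come from one transcript that the transcription factor CREB induces in active neurons, and both have also been studied in cardiac hypertrophy. miR-375 is the miRNA of pancreatic islets, where it restrains insulin secretion, and is also found in pituitary, gut and other epithelia. In a whole-organ library, fewer cells of a type and less RNA per cell cannot be told apart.

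The mature sequences are shown first, because they decide which reads could be given to a single gene. They are from RefSeq (GRCm38.p6), written 5′ to 3′, with the seed (bases 2 to 8) in capitals. All 6 genes had an entry, and miR-375-3p is named only.
miR-132-3p: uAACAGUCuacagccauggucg
miR-212-3p: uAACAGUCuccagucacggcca
miR-128-3p: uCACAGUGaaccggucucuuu
miR-128-1-5p: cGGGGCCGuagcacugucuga
miR-128-2-5p: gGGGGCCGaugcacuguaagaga
miR-137-3p: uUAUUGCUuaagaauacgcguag
miR-375-5p: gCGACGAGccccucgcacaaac
miR-132-3p and miR-212-3p have the same seed and are alike at 17 of 22 positions. Counted from the 5′ end, with the base of miR-132-3p first, they differ by A10C, C14U, U17C, U20C and G22A. No other mature entry of the 1738 in the table carried that seed at the same place. The 5p strands of the Mir128 genes also share a seed, although the longest stretch they have in common is 7 bases. The seed of miR-128-3p recurs, shifted by 1 base, in miR-27a-3p and miR-27b-3p. Mir27b, which acts in muscle and vessels, had 1237 counts per 1000000 counts on miRNA genes (CPM) in replicate 1 and 1381 in replicate 2. Mir27a had 230 and 275 CPM.

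The Mir128 hairpins are printed whole, with their longest shared stretch in capitals, since that stretch contains the entire miR-128-3p.
Mir128-1 hairpin: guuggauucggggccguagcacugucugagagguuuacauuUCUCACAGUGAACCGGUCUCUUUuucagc
Mir128-2 hairpin: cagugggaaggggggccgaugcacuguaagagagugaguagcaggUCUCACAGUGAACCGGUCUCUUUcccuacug
The shared stretch is 23 bases long. A read of exactly miR-128-3p matches both hairpins, and reads matching several places are in no gene count. Such reads made up 33.0% of all reads in replicate 1 and 30.1% in replicate 2. The counts of Mir128-1 and Mir128-2 given below can therefore fall short of the level of miR-128-3p. The other 4 genes share no stretch of 20 bases with the hairpin of another counted gene. Hairpins outside the counted genes were not searched. The counts are per hairpin, so the 5p and 3p strands were not told apart.

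The genes lie in 5 places of the genome (GRCm38). Mir128-1 (ENSMUSG00000065520.1) is on the plus strand of chromosome 1, positions 128202361 to 128202430, in an intron of R3hdm1. Mir128-2 (ENSMUSG00000065441.1) is on the minus strand of chromosome 9, positions 112118636 to 112118711, in an intron of Arpp21, which encodes a cAMP-regulated phosphoprotein of neurons. Mir137 (ENSMUSG00000065569.1) is on the plus strand of chromosome 3, positions 118433857 to 118433929, in an exon of the noncoding transcript Gm26871. Mir212 (ENSMUSG00000065590.1, chromosome 11, positions 75173388 to 75173478) and Mir132 (ENSMUSG00000065537.1, positions 75173682 to 75173747) lie 203 bases apart. Both are on the plus strand, in an intron of the noncoding transcript 1700016P03Rik. Mir375 (ENSMUSG00000065616.2) is on the minus strand of chromosome 1, positions 74900658 to 74900721, inside no annotated gene. Its nearest annotated gene is Cfap65, whose nearer edge lies 1350 bases from it.

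Every one of the 6 miRNAs was detected, meaning at least 10 counts in both libraries, as were 16.6% of all counted miRNA genes. Replicate 1 held 3439539 counts on miRNA genes and replicate 2 held 5833156, so 1 count is worth 0.291 and 0.171 CPM. No count fell on the strand opposite any of the 6 genes in either library. Their summed level was 481 CPM in replicate 1 (exact binomial 95% interval 458 to 504) and 1811 CPM in replicate 2 (1776 to 1845). The mean was 1146 ± 940 CPM (SD, n = 2). The intervals cover counting error only, because each rests on the counts of 1 library. The deposited counts hold no molecular identifiers, so duplicate reads could not be set apart. The heart muscle miRNAs, led by Mir208b and Mir208a from myosin introns, summed to 62461 CPM and 45595 CPM, so these markers of the labelled tissue were abundant. Mir1a-1, Mir133a-1 and Mir133a-2 had at most 7 counts in a library, and the Mir133a hairpins share a stretch of 20 bases. Mir1a-2 was not among the counted symbols, so a stretch shared between it and Mir1a-1 could not be seen. Because reads matching several places are in no gene count, these low counts do not give the levels of mature miR-1a and miR-133a.

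Mir132, the activity-induced miRNA of the pair on chromosome 11, had close levels in both pools. It gave 553 counts in replicate 1 and 1084 in replicate 2, which are 161 CPM (148 to 175) and 186 CPM (175 to 197). Its neighbour Mir212 had 53 and 106 counts, or 15.4 CPM (11.5 to 20.2) and 18.2 CPM (14.9 to 22.0). The counting intervals of the libraries overlapped for Mir212 and lay side by side, without overlap, for Mir132. The means were 173 ± 17.7 CPM for Mir132 and 16.8 ± 1.95 CPM for Mir212 (SD, n = 2).

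The libraries were then put on a common scale with trimmed mean (TMM) factors, and each gene's counts were tested with an exact binomial test. The log2 ratio of replicate 2 to replicate 1 was 0.04 for Mir132 (95% interval -0.11 to 0.19, Benjamini-Hochberg adjusted p = 0.753). That of Mir212 was 0.06 (-0.42 to 0.57, adjusted p = 0.930, same test). With total counts in place of TMM the ratio of Mir132 was 0.21 and passed (adjusted p = 0.0128), and with DESeq2 size factors it was -0.0038. Over the other 5 alternatives its adjusted p ran from 0.698 to 1.

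The ratio of Mir132 to Mir212 counts was 10.4 in replicate 1 (95% interval 7.86 to 14.1) and 10.2 in replicate 2 (8.37 to 12.6). On the log2 scale it was 3.37 ± 0.02 (SD, n = 2). It changed by -0.03 from replicate 1 to replicate 2, with an interval of -0.56 to 0.48 (Fisher's exact test, two-sided, p = 0.930 adjusted over 2 pairs). A difference inside that interval was not detectable at the 53 and 106 counts of Mir212. Such a ratio compares reads of different hairpins, not their amounts in the tissue.

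**Figure D1:**
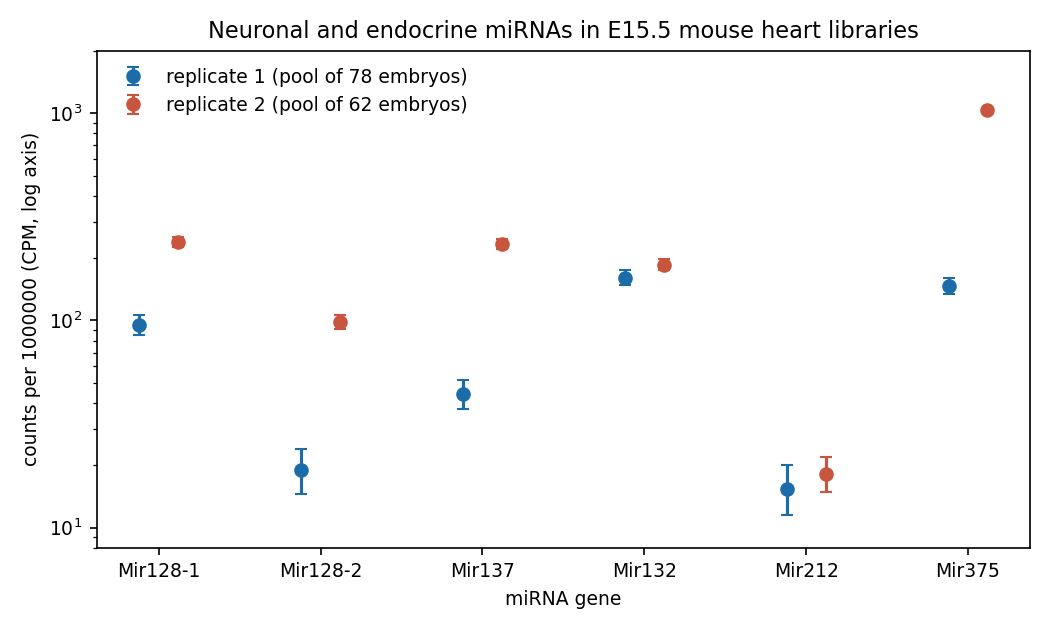
Level of each miRNA gene in CPM (log axis) in replicate 1 and replicate 2, with exact binomial 95% intervals as bars. The points of Mir132 and Mir212 lie close together, while those of the other 4 genes lie apart, most for Mir375 at 146 and 1035 CPM.

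Mir128-1 and Mir128-2, the neuronal paralogues, were both higher in replicate 2. Mir128-1 had 327 and 1392 counts, or 95.1 CPM (85.0 to 106) in replicate 1 and 239 CPM (226 to 252) in replicate 2. Mir128-2 had 65 and 574 counts, or 18.9 CPM (14.6 to 24.1) and 98.4 CPM (90.5 to 107). The counting intervals of the libraries did not overlap for either gene.

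The TMM-scaled log2 ratio of replicate 2 to replicate 1 was 1.15 for Mir128-1 (0.98 to 1.33, exact binomial test, adjusted p = 7.74e-44). It was 2.21 for Mir128-2 (1.84 to 2.60, exact binomial test, adjusted p = 1.41e-44). The gap between the paralogues therefore narrowed. Mir128-1 exceeded Mir128-2 5.03 times in replicate 1 (3.84 to 6.67) and 2.43 times in replicate 2 (2.20 to 2.68). The log2 ratio of the pair changed by -1.05 (interval -1.48 to -0.64, Fisher's exact test, adjusted p = 2.18e-07). This compares reads that could be placed on one hairpin, since the reads of exactly miR-128-3p are in neither count.

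**Figure D2:**
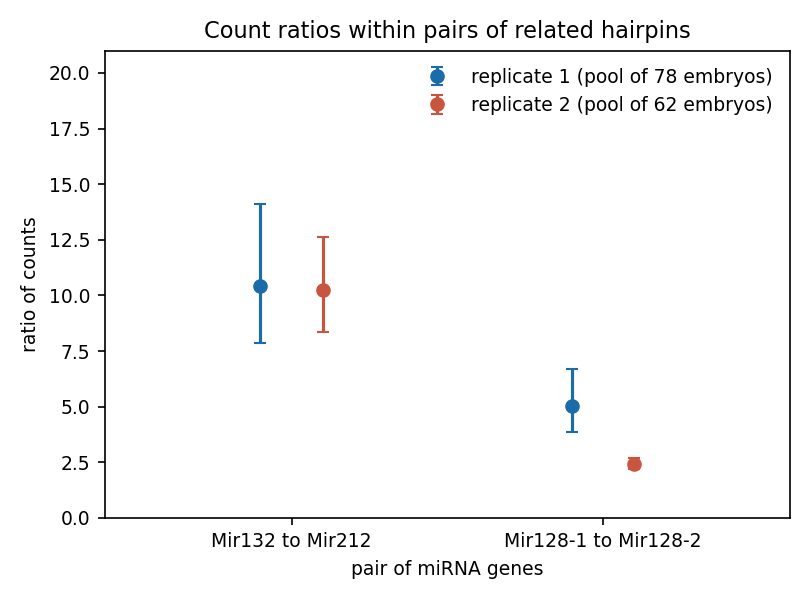
Ratio of counts, Mir132 to Mir212 and Mir128-1 to Mir128-2, in each library, with exact binomial 95% intervals as bars and the axis starting at 0. The first ratio stays near 10.4 and 10.2, while the second goes from 5.03 to 2.43.

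Mir137, a brake on neuronal progenitor growth and a regulator of synapses, had 152 counts in replicate 1 and 1366 in replicate 2. These are 44.2 CPM (37.4 to 51.8) and 234 CPM (222 to 247), a ratio of 5.30 between the libraries. After TMM scaling the log2 ratio was 2.23 (1.99 to 2.48, exact binomial test, adjusted p = 1.95e-106). Mir375, the islet miRNA, differed most. It had 503 and 6039 counts, or 146 CPM (134 to 160) in replicate 1 and 1035 CPM (1009 to 1062) in replicate 2. Its scaled log2 ratio was 2.65 (2.52 to 2.78), with an exact binomial p below the smallest number the computation could hold. Mir375 made up 30.4% of the counts of the 6 genes in replicate 1 and 57.2% in replicate 2. Without Mir375 the other 5 summed to 334 and 775 CPM.

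The order of the levels differed between the pools. In replicate 1 it ran Mir132, Mir375, Mir128-1, Mir137, Mir128-2 and Mir212. The intervals of Mir132 and Mir375 overlapped there, as did those of Mir128-2 and Mir212. In replicate 2 it ran Mir375, Mir128-1, Mir137, Mir132, Mir128-2 and Mir212, with overlapping intervals for Mir128-1 and Mir137. Dividing by hairpin length, which ranged from 64 to 91 bases, gave the same order in both libraries. Over the 2 libraries, the ranges of Mir375, Mir132, Mir128-1 and Mir137 overlapped one another, so their order was not separated by the spread between pools. Mir212 was last in both, below the whole range of every other gene. Among all 1973 genes, Mir375 ranked 153 in replicate 1 and 78 in replicate 2, while Mir132 ranked 145 and 158. Mir137 ranked 218 and 144.

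By the exact binomial test 4 of the 6 genes passed, against 46.5% of all genes tested. All 4 (Mir128-1, Mir128-2, Mir137 and Mir375) were higher in replicate 2, and 0 were higher in replicate 1. Of the 413 genes tested, 24.7% were called higher in replicate 2 and 21.8% higher in replicate 1, so a call by this test is common. The 102 calls toward replicate 2 and 90 toward replicate 1 became 155 and 48 with total counts as library size. That scaling moved the median log2 ratio of detected genes from 0.00 to 0.18. Large differences were less common. A scaled log2 ratio of at least 1 toward replicate 2 was reached by 4 of the 6, against 7.65% of the 327 detected genes. Because the 6 were chosen with earlier results of these data known, these shares describe them and test nothing. Mir375 had the largest log2 ratio of all detected genes, Mir137 the fifth and Mir128-2 the sixth, while Mir128-1 stood at place 21. Mir132 and Mir212 were at places 155 and 138. The median was 1.68 for the 6 genes and 0.00 for all detected genes.

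A stricter test added a common dispersion, equal to a coefficient of variation of 29.9%, estimated over all genes from the same 2 libraries that it compares. With 1 library on each side there is no independent measure of the spread between pools. A call by this test marks a gene that differed more than most genes did, and does not show a difference beyond the variation between pools. By this negative binomial test in edgeR, 1.69% of genes were called, 7 of 413, all higher in replicate 2. Mir375 (adjusted p = 0.0173) and Mir137 (adjusted p = 0.0451) were among them. Mir128-2 had an adjusted p of 0.051 and Mir128-1 one of 0.938 in the same edgeR test, so neither passed. The other 5 calls, named after their values were seen, were Mir196a-2, Mir20b, Mir205, Mir363 and Mir183. Mir196a-2, with 5 and 104 counts, was not among the detected genes, and its log2 ratio of 3.44 was larger than that of Mir375.

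**Figure D3:**
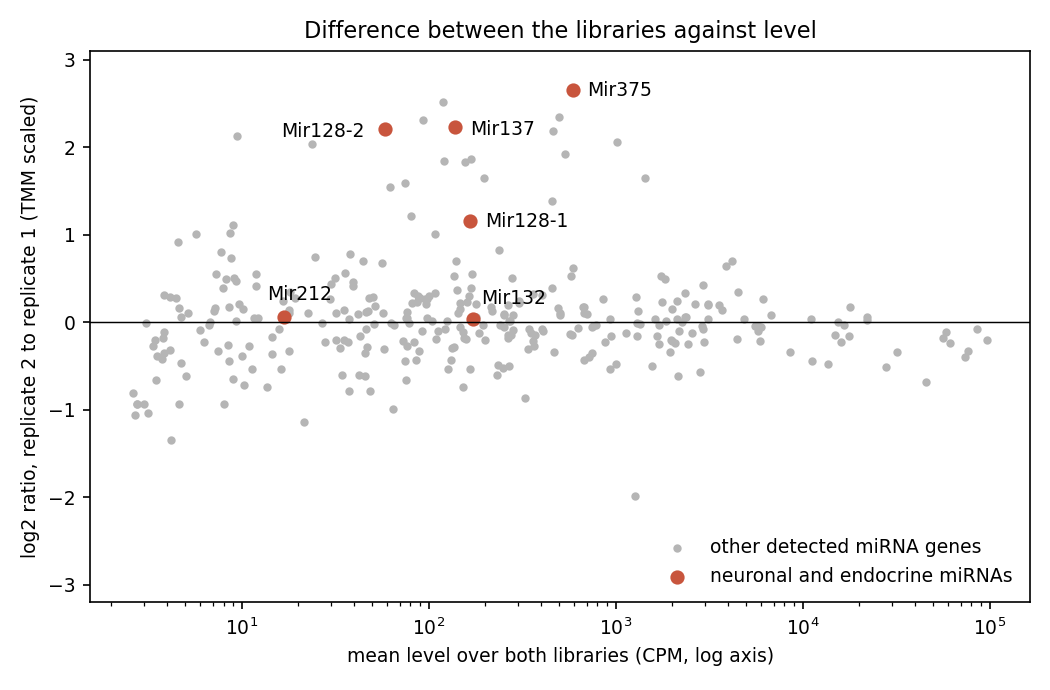
TMM-scaled log2 ratio of replicate 2 to replicate 1 against mean CPM (log axis) for the 327 detected miRNA genes, with the 6 neuronal and endocrine genes in red. Mir375 is the highest point at 2.65, Mir137 and Mir128-2 lie above 2, and Mir132 and Mir212 lie on the zero line among the grey points.

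Genes with a like ratio between the pools were sought among 246 other genes with a mean of at least 100 counts, taking the absolute difference in log2 ratio over 2 libraries. Nearest to Mir375 were Mir20b (0.14 away), Mir205 (0.30) and Mir363 (0.34). Mir183, Mir363 and Mir205 were nearest to both Mir137 (0.05, 0.07 and 0.12) and Mir128-2 (0.03, 0.10 and 0.14). Mir615 (0.05), Mir92b (0.14) and Mir200b (0.23) came nearest to Mir128-1. Nearest to Mir132 were Mir369, Mir501 and Mir151, the farthest of which was 0.0032 away. With 2 libraries each gene has a single ratio, so likeness here describes one number.

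The list of other neuronal miRNAs had a median ratio near that of all detected genes. Of 21 further neural symbols 20 were counted, 13 had enough counts to test and 11 were detected. Of the 11 detected, 6 share a stretch of 20 bases with a paralogue: Mir129-1 and Mir129-2, Mir138-1 and Mir138-2, and Mir218-1 and Mir218-2. Their counts, and the sums and median of the list, can therefore fall short of or differ from those of the mature miRNAs. By the exact binomial test 3 were higher in replicate 2 (Mir383, Mir218-2 and Mir598), 1 was higher in replicate 1 (Mir330) and 9 were not called. Of all genes tested, 24.7% were called higher in replicate 2 and 21.8% higher in replicate 1. The negative binomial test called 0 genes of this list. The list summed to 651 and 746 CPM in replicates 1 and 2, and its detected genes had a median log2 ratio of 0.06. Mir383 had the largest ratio among its detected genes, with 11 and 92 counts and a log2 ratio of 2.13 (adjusted p = 2.20e-07, exact binomial test). Mir218-2, a miRNA of motor neurons hosted by Slit3, had 23.8 and 36.3 CPM. Mir598 had 156 and 203 CPM. Mir330 had 274 and 279 CPM but a TMM-scaled log2 ratio of -0.15, so its direction depended on the scaling.

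The remaining detected neural genes lay between log2 ratios of -0.94 and 0.24. Mir129-1 had 20 counts in each library, and Mir129-2 had 53 and 96. Mir138-1, which acts on dendritic spines, had 156 and 340 counts, and its paralogue Mir138-2 had 291 and 475. Mir153 had 36 and 44 counts, Mir218-1 had 52 and 104, and Mir326 had 49 and 111. The most neuron-specific miRNA of the list could not be read: Mir124a-1, Mir124a-2 and Mir124a-3 each had 0 counts in both libraries. A limit of 3 counts is 0.872 and 0.514 CPM in replicates 1 and 2. It bounds only reads placed on a single hairpin, and not the level of the mature miRNA. These hairpins share a stretch of 20 bases with each other, so that their reads can match several places. The same holds for Mir9-2 (0 counts in both) and Mir9-3 (1 and 9 counts). Of the glial list, Mir338 had 30.8 and 47.8 CPM and was called higher in replicate 2 (log2 ratio 0.46, exact binomial test, adjusted p = 0.0134). Mir219a-1 had 39 and 77 counts and was not called, and it shares a stretch of 20 bases with Mir219a-2.

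The other endocrine miRNAs were low beside Mir375 in replicate 2. Of 8 genes 5 were detected. By the exact binomial test 3 were called higher in replicate 2 and 0 higher in replicate 1, against 24.7% and 21.8% of all genes tested. The negative binomial test called 0 genes of this list. The list summed to 123 and 200 CPM, with a median log2 ratio of 0.51. Mir7b, of a family known from pituitary and islets, had 29 and 227 counts and a log2 ratio of 2.03 (exact binomial test, adjusted p = 1.81e-16). Mir7-1 had 59 and 189 counts with a ratio of 0.74, and Mir184 had 84 and 228 with a ratio of 0.51. Mir204 (239 and 494 counts) and Mir7-2 (10 and 19 counts) were not called. Mir7-1 and Mir7-2 share a stretch of 20 bases. The pancreatic Mir216a, Mir216b and Mir217 had at most 6 counts in a library.

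Of the marker lists for other tissues, those for epithelium, the sensory and neuroendocrine cluster and liver (1 gene) were higher in replicate 2. Mir375, Mir137 and the Mir128 genes were higher there too. Of the 413 genes tested, the exact binomial test called 24.7% higher in replicate 2 and 21.8% higher in replicate 1. The negative binomial test called 1.69%, all higher in replicate 2. The epithelium list was higher in replicate 2 in 7 of 7 genes, all called by the exact binomial test, with sums of 1821 and 6297 CPM and none of its genes at 0. The negative binomial test called 1 of these 7 (Mir205). It was led by Mir429 (634 and 2239 CPM) and Mir200c (357 and 1672 CPM). The list of the sensory and neuroendocrine cluster (Mir96, Mir182 and Mir183) was higher in 3 of 3, all called by the exact binomial test and 1 (Mir183) by the negative binomial test, with sums of 421 and 1914 CPM. Its leading genes were Mir182 (202 and 865 CPM) and Mir183 (152 and 778 CPM). Mir122 of the liver had 87.2 and 309 CPM, and was called by the exact binomial test but not by the negative binomial test (adjusted p = 0.196, edgeR). Further markers, chosen after their values were seen, went either way or were not called. Mir215, known from gut, liver and kidney, had 403 and 250.5 CPM with a scaled log2 ratio of -0.86 (exact binomial test, adjusted p = 6.37e-55). Mir192, of the same family, had 48.8 and 45.3 CPM and was not called (log2 ratio -0.28, exact binomial test, adjusted p = 0.0944). Mir194-1 had 45.6 and 29.8 CPM and was called lower in replicate 2, whereas its paralogue Mir194-2 had 31.7 and 39.3 CPM and was not called, and the hairpins of this pair share a stretch of 20 bases. Mir451a, the miRNA of red blood cells, had 1975 and 564 CPM, a scaled log2 ratio of -1.98. It was called by the exact binomial test but not by the negative binomial test (adjusted p = 0.082, edgeR). Mir144, also of red blood cells, had 401 and 422 CPM. It was not called (log2 ratio -0.10, exact binomial test, adjusted p = 0.0841). Mir486, another of these, had 80.8 and 110 CPM. It was called higher in replicate 2 (log2 ratio 0.27, exact binomial test, adjusted p = 0.0239). The heart muscle list moved the other way, with 3 of 5 tested genes called higher in replicate 1. Mir208b had 53878 and 37837 CPM, and Mir208a had 5972 and 5801 CPM. The part of these tissues in the levels of Mir375, Mir137 and the Mir128 genes was not tested.

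**Figure D4:**
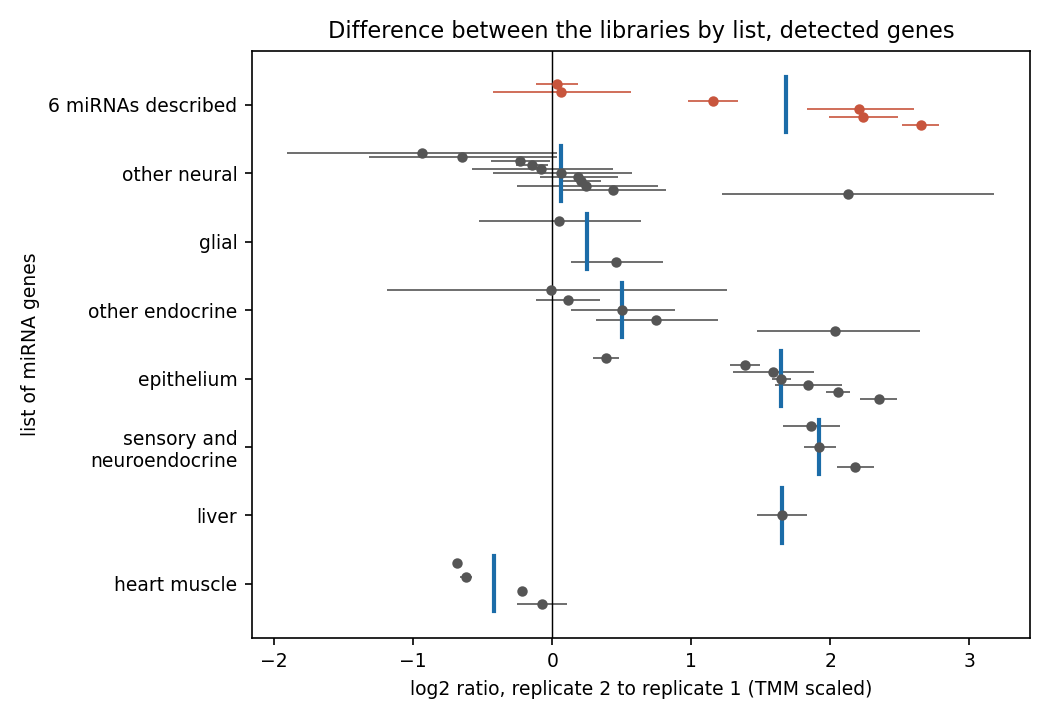
TMM-scaled log2 ratio of replicate 2 to replicate 1 for the detected genes of each list, with exact 95% intervals as bars and the list's median as a blue line. The 6 genes split into Mir132 and Mir212 near 0 and 4 genes above 1, other neural genes centre on 0.06, and the epithelium genes centre on 1.65.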

How the data were processed

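The authors deposited whole, unnormalized read counts per miRNA gene, 1 file per library, placed on mm10 with GENCODE annotation M4, per the deposited text files. Which aligner, trimmer and counter made them is not given in the sources used here. Both files lack a header. Their 3 columns were read as either strand, the strand of the gene (used here) and the opposite strand, from the values. Lines that name no gene were left out of all totals and made up 51.3% and 50.3% of reads in replicates 1 and 2. IDs were matched without version to GENCODE M21 (1894 of 1973), which gave symbols and positions on the same assembly. The hairpins of counted genes with a match in this release were searched for stretches of 20 bases shared among them.

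CPM are counts per 1000000 counts on the gene's strand. Shares have exact (Clopper-Pearson) 95% intervals. Genes with at least 10 counts summed were compared between libraries by an exact binomial test (two-sided, conditional on the gene's sum) at TMM-scaled library sizes (factors 0.942 and 1.06, edgeR 4.0.16, R 4.3.3), with Benjamini-Hochberg adjustment over all 413 genes and a threshold of 0.05. The p-values refer to counting noise alone, and no conditions were compared. Alternatives were total counts, DESeq2 1.42.0 size factors, filters of 1 and 100 counts, either strand, and edgeR's negative binomial exact test with a common dispersion estimated from the same 2 libraries. The test was checked on libraries simulated with counting noise alone, so the check does not cover variation between pools. Other steps used scipy 1.17.1, numpy 2.4.6 and pandas 2.3.3 in Python 3.11.15.

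The 6 genes and the lists were chosen with earlier results of these data known. Named were the 6 genes, detected genes of the neural, glial and endocrine lists, 2 leading genes of each other list, and the 3 genes nearest in log2 ratio to each of the 6 with a mean of at least 100 counts. Mir215, Mir192, Mir194-1, Mir194-2, Mir451a, Mir144 and Mir486 were added after their values were seen. Of 51 listed symbols, Mir9-1 and Mir1a-2 were not analysed here.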

Additional observations from a re-analysis of the deposited data

Results flagged for a closer look

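Mir144 and Mir486 left aside, counts on the strand opposite a named gene exceeded the limit of 3 that a count of 0 allows for 3 genes. Opposite Mir338 there were 4 counts in replicate 2. Opposite Mir122 there were 4 counts in replicate 1 and 6 in replicate 2. Opposite Mir194-1 there were 4 counts in replicate 2. None lay opposite the 6 neuronal and endocrine genes.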

How the results depend on the processing

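Of the 6 genes 4 were called by the exact binomial test, 5 with total counts as library size and 2 with the negative binomial test. Of all 413 genes tested, 203 were called with total counts, 155 of them higher in replicate 2. The negative binomial test called 7 of 413 genes, against 192 by the exact binomial test, and 28 had an unadjusted p under 0.05. Its dispersion comes from the same 2 libraries, so its calls do not show a difference beyond the variation between pools. Mir128-1 and Mir128-2 passed under the other 5 alternatives, with adjusted p from 7.84e-59 to 9.16e-41 and from 3.90e-53 to 9.04e-43. Mir375 and Mir137 passed under all 6. Mir132 changed sign to -0.0038 with DESeq2 size factors. Of 36 log2 ratios recomputed over the 6 genes, 32 kept direction and side of the threshold. Without 1 replicate, the summed level was 481 to 1811 CPM, the log2 ratio of Mir132 to Mir212 was 3.35 to 3.38, and that of Mir128-1 to Mir128-2 was 1.28 to 2.33. No paired analysis was possible because the series has a single group. With 53 and 65 counts in replicate 1, Mir212 and Mir128-2 have the widest intervals of the 6. With 2 pools, a difference between pools and one between library preparations cannot be told apart.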
